A study of Mus musculus with 33 samples.

Results

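Paralogous proteins of the heterochromatin protein 1 (HP1) family were compared directly through the mouse embryonic stem cells (ESCs) that lack one or the other: Hp1β Δ/Δ ESCs, in which Cbx1 was targeted, and Hp1α Δ/Δ ESCs, in which Cbx5 was targeted. The comparison used the 3 count columns of each line, 6 of the 33 RNA-seq libraries of the series, joined on the gene identifier and without the wild-type control that both lines share. All lines were C57BL/6 ESCs carrying constitutive CRISPR/Cas9 knockouts made with paired guide RNAs, and the study's methods describe expansion from individual clones, so that line, clone and genotype cannot be told apart here. The ESCs were grown on inactivated mouse embryonic fibroblast feeders in serum with LIF and were parted from the feeders on gelatin before RNA extraction. Groups used beside them were wild-type set A, Hp1γ Δ/Δ and Hp1α/β Δ/Δ ESCs, and, as a second contrast that shares no library with the first, Hp1β/γ Δ/Δ against Hp1α/γ Δ/Δ ESCs, with wild-type set B. Each group had 3 libraries, and the 6 main libraries held between 20233390 and 23165179 gene counts.

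HP1 proteins read histone H3 methylated on lysine 9 (H3K9) through a chromodomain and recruit partners through a chromoshadow domain. Mammals have HP1α (Cbx5), HP1β (Cbx1) and HP1γ (Cbx3), which can form dimers with each other and bind many of the same partners, among them H3K9 methyltransferases and the corepressor TRIM28. In ESCs they take part in silencing of heterochromatin and of germline genes, and a direct contrast of the knockouts shows where loss of one paralog left a different transcriptome from loss of the other.

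The guide RNAs define the alleles compared, and are shown for that reason as the study lists them, in lower case. The capitals after the HP1β upstream guide are the 3 bases that follow its match on the reference and mark the protospacer adjacent motif.
HP1α upstream sgRNA: ctcgccagttctgccgagat
HP1α downstream sgRNA: ggctgagtgagaactagtag
HP1β upstream sgRNA: tactaggaaagtctagcgatTGG
HP1β downstream sgRNA: tcttgcatagaagcctaggc
The HP1β upstream guide matched 1 GENCODE transcript, the Cbx1 transcript ENSMUST00000141257.1, annotated as a retained intron, at chr11:96801311-96801330 on the plus strand of GRCm38. The other 3 guides had no match among the annotated transcripts, and no genome sequence was used here to place them.

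The targeted genes followed the labels. Cbx1, on chromosome 11, measured 97.6, 96.0 and 107 CPM (counts scaled to library depth with trimmed mean of M values factors) in the Hp1β Δ/Δ libraries and 456, 443 and 447 CPM in the Hp1α Δ/Δ libraries. It was lower in Hp1β Δ/Δ ESCs by a log2 fold change of -2.16 (SE 0.049, adjusted p = 7.65e-11, edgeR quasi-likelihood test). Cbx5, on chromosome 15, measured 172, 176 and 174 CPM in the Hp1α Δ/Δ libraries against 416, 451 and 444 CPM in the Hp1β Δ/Δ libraries, a log2 fold change of 1.33 (SE 0.043, adjusted p = 1.37e-09). Neither gene was at 0 in its own knockout, and the counts cover the whole gene rather than the deleted stretch.

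Per transcript length, which allows genes to be compared, Cbx1 was the most abundant of the 3 paralogs where it was intact. In the deposited TPM, transcript levels scaled for length and depth, the Hp1α Δ/Δ libraries held 473, 451 and 451 TPM of Cbx1 and 26.4, 31.5 and 25.9 TPM of Cbx5. The Hp1β Δ/Δ libraries held 65.0, 67.9 and 74.9 TPM of Cbx1 and 84.4, 88.3 and 83.6 TPM of Cbx5. Cbx3, which encodes the third paralog, was at 152, 167 and 169 TPM in Hp1β Δ/Δ and 181, 164 and 168 TPM in Hp1α Δ/Δ ESCs, overlapping ranges. Its log2 fold change in CPM was -0.04 (SE 0.048, adjusted p = 0.498).

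**Figure D1:**
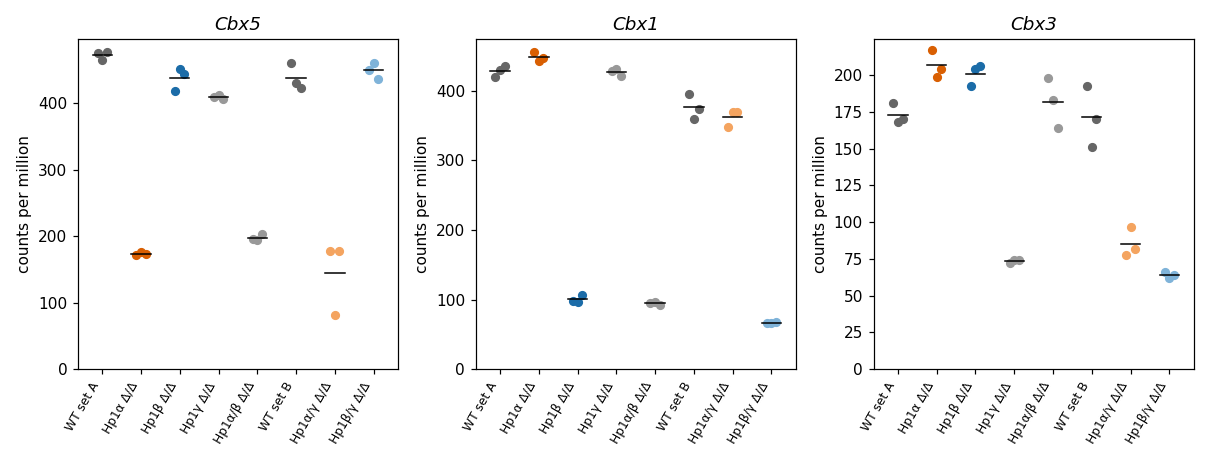
CPM of Cbx5 (HP1α), Cbx1 (HP1β) and Cbx3 (HP1γ) in each of 24 libraries, scaled together; points are libraries and black lines the mean of the 3 libraries of a group. Cbx1 was low in the groups lacking HP1β and Cbx5 low in those lacking HP1α, while Cbx3 overlapped between Hp1α Δ/Δ and Hp1β Δ/Δ ESCs.

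None of the 6 H3K9 methyltransferase genes was called different by edgeR or by DESeq2, where calling a gene took both a log2 fold change beyond 1 in either direction and an adjusted p below 0.05, while 4 of them had an unadjusted p under 0.05. Ehmt2, which encodes G9a, was at 219, 207 and 197 CPM in Hp1β Δ/Δ and 171, 168 and 168 CPM in Hp1α Δ/Δ ESCs, ranges that did not overlap, with a log2 fold change of 0.30 (SE 0.047, adjusted p = 0.000326). Suv39h2 had a log2 fold change of -0.16 (adjusted p = 0.0331). Setdb1 (0.10, adjusted p = 0.0773), Ehmt1 (0.11, adjusted p = 0.0965), Suv39h1 (0.11, adjusted p = 0.144) and Setdb2 (-0.08, adjusted p = 0.511) did not pass the adjusted p.

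Over all genes, 958 of the 15728 tested (6.09%) were called. Of these, 409 (2.60% of those tested) were higher and 549 (3.49%) lower in Hp1β Δ/Δ than in Hp1α Δ/Δ ESCs, and the median log2 fold change of all tested genes was -0.002. At the adjusted p alone, 3043 genes (19.3%) were higher and 3190 (20.3%) lower, 39.6% together, and the libraries of the groups did not overlap for 50.7% of the tested genes. These shares are the background for the counts of each gene list below. Changes above 2 on the log2 scale were found for 72 genes called higher and 74 called lower. The called genes were low in level: their median in the higher group was 2.89 CPM for those higher and 3.34 CPM for those lower in Hp1β Δ/Δ ESCs, against 19 CPM over all tested genes. Between replicates the biological coefficient of variation was 0.0672, and since nothing in the labels ties libraries to separate clones, p-values measure the spread between these libraries.

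**Figure D2:**
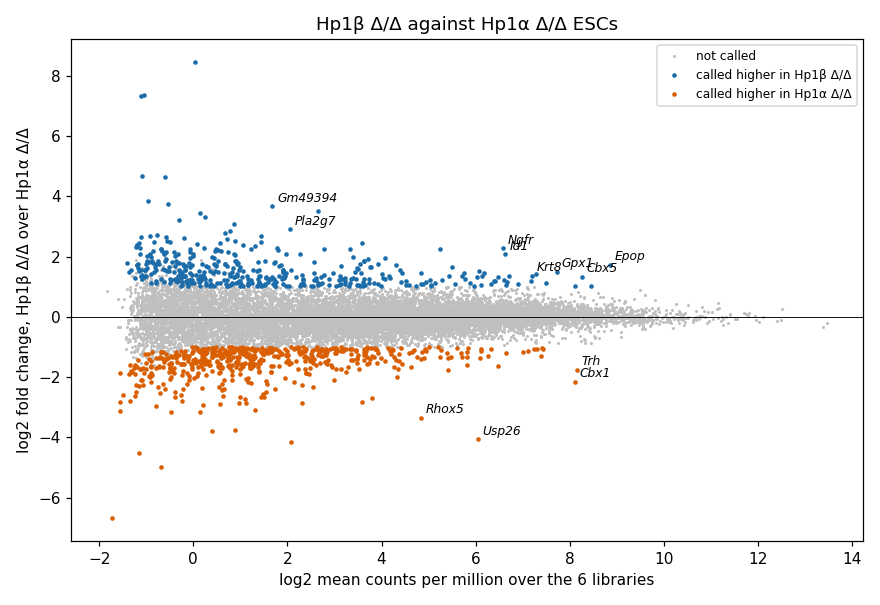
Log2 fold change of Hp1β Δ/Δ over Hp1α Δ/Δ ESCs against the log2 mean CPM of the 6 libraries, 1 point per tested gene; blue points are the 409 genes called higher and orange points the 549 called lower in Hp1β Δ/Δ ESCs. Usp26 and Rhox5 lay lowest among the genes of moderate level, and Epop, Ngfr and Id1 stood out at higher levels.

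Among named genes at 5 CPM or more in the higher group and with no overlap between the groups, the largest fall was at Usp26, an X-linked ubiquitin protease gene of the germ line (chrX:51753959-51801233, GRCm38). It measured 6.84, 7.59 and 7.75 CPM in Hp1β Δ/Δ against 122, 126 and 122 CPM in Hp1α Δ/Δ ESCs. The groups were far apart, at a log2 fold change of -4.06 (SE 0.065, adjusted p = 2.31e-12), or 16.7-fold lower. Wild-type set A held a median of 168 CPM and Hp1γ Δ/Δ ESCs 61.3 CPM, whereas the Hp1α/β Δ/Δ libraries held 4.87 CPM, near the Hp1β Δ/Δ level.

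Rhox5, a homeobox gene of the X-linked reproductive cluster, followed with 6.03, 5.31 and 3.97 CPM in Hp1β Δ/Δ and 51.7, 52.8 and 51.4 CPM in Hp1α Δ/Δ ESCs, a log2 fold change of -3.35 (SE 0.11, adjusted p = 1.37e-09). Wild-type set A lay between the groups at a median of 16 CPM, while Hp1γ Δ/Δ (8.02 CPM) and Hp1α/β Δ/Δ ESCs (7.71 CPM) lay nearer to Hp1β Δ/Δ ESCs. Of 42 annotated Rhox genes 5 were tested and 4 were called, all lower in Hp1β Δ/Δ ESCs, with a list median of -2.03. Rhox6 (log2 fold change -1.89, adjusted p = 6.79e-06), Rhox9 (-2.03, adjusted p = 1.39e-05) and Rhox1 (-2.64, adjusted p = 0.00738) were the others, and Rhox1 was below 1 CPM in all 6 libraries. Rhox1 reached the level needed for testing in the Hp1α Δ/Δ libraries alone (0.494, 0.86 and 0.789 CPM against 0.201, 0.132 and 0.0 CPM). It could therefore only be called lower, and its call says nothing on the direction of the list.

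The remaining large falls were spread over functions. Gfra1, a coreceptor for GDNF used by spermatogonial stem cells, was at 3.17, 2.85 and 2.85 CPM against 19.9, 22.7 and 20.6 CPM in Hp1α Δ/Δ ESCs (log2 fold change -2.83, adjusted p = 8.53e-09). Cyct, the testis cytochrome c, was at 3.77, 4.61 and 2.61 CPM against 24.7, 24.3 and 23.3 CPM (log2 fold change -2.71, adjusted p = 6.18e-08). For Gfra1 the wild-type set A median was 3.51 CPM, close to Hp1β Δ/Δ ESCs, and for Cyct it was 28.9 CPM, close to Hp1α Δ/Δ ESCs. Pnma5 (log2 fold change -2.85), Y-linked Zfy1 (-2.15) and the presynaptic scaffold gene Pclo (-2.11) were also lower in Hp1β Δ/Δ ESCs.

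The largest rises in Hp1β Δ/Δ ESCs included signalling genes. Ngfr, the low-affinity neurotrophin receptor, measured 169, 159 and 146 CPM in Hp1β Δ/Δ and 33.5, 34.4 and 30.1 CPM in Hp1α Δ/Δ ESCs (log2 fold change 2.27, SE 0.069, adjusted p = 8.44e-10). Wild-type set A lay between the groups for Ngfr, at a median of 75.1 CPM.

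Pla2g7, a secreted phospholipase, had the largest rise of the genes at 5 CPM or more with an assigned name, at 7.34, 7.81 and 6.72 CPM against 1.17, 0.473 and 1.30 CPM (log2 fold change 2.90, SE 0.27, adjusted p = 5.77e-06). The ligand gene Wnt3 (log2 fold change 2.28), the small heat-shock protein gene Cryab (2.26), the clock factor gene Arntl2 (2.24), the retinoic acid hydroxylase gene Cyp26a1 (2.22) and the epidermal gene Dmkn (2.09) were higher too. Among predicted genes, Gm49394 (3.67) and Gm17019 (3.53) rose furthest, and the lincRNA Gm41031 (-2.39) and Gm49229 (-2.26) fell furthest.

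Germ cell and meiosis genes were mostly lower in Hp1β Δ/Δ ESCs where they were called. Of 34 tested members 6 were called lower and 3 higher (8 and 13 at the adjusted p alone were higher and lower), and the list median was -0.08 against -0.002 for all genes. Besides Usp26, Tdrd12, a piRNA pathway factor, was at 37.7, 47.2 and 46.7 CPM in Hp1β Δ/Δ and 137, 132 and 135 CPM in Hp1α Δ/Δ ESCs (log2 fold change -1.62, adjusted p = 1.57e-08). Stra8, the gene that retinoic acid switches on at meiotic entry, had a log2 fold change of -1.72 (adjusted p = 7.81e-06). Syce3, a synaptonemal complex gene, went the other way at 1.65 (adjusted p = 0.0161), at 1.06 to 1.93 CPM in the higher group. In the Hp1α Δ/Δ libraries it was at 0.449, 0.172 and 0.742 CPM, so it entered the test through the Hp1β Δ/Δ libraries. It could therefore only be called higher. The Syce3 call was lost without Hp1α Δ/Δ replicate 1, Hp1α Δ/Δ replicate 2 or Hp1β Δ/Δ replicate 2 (adjusted p up to 0.0798). For Tdrd12 the wild-type set A median was 146 CPM, near Hp1α Δ/Δ ESCs.

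**Figure D3:**
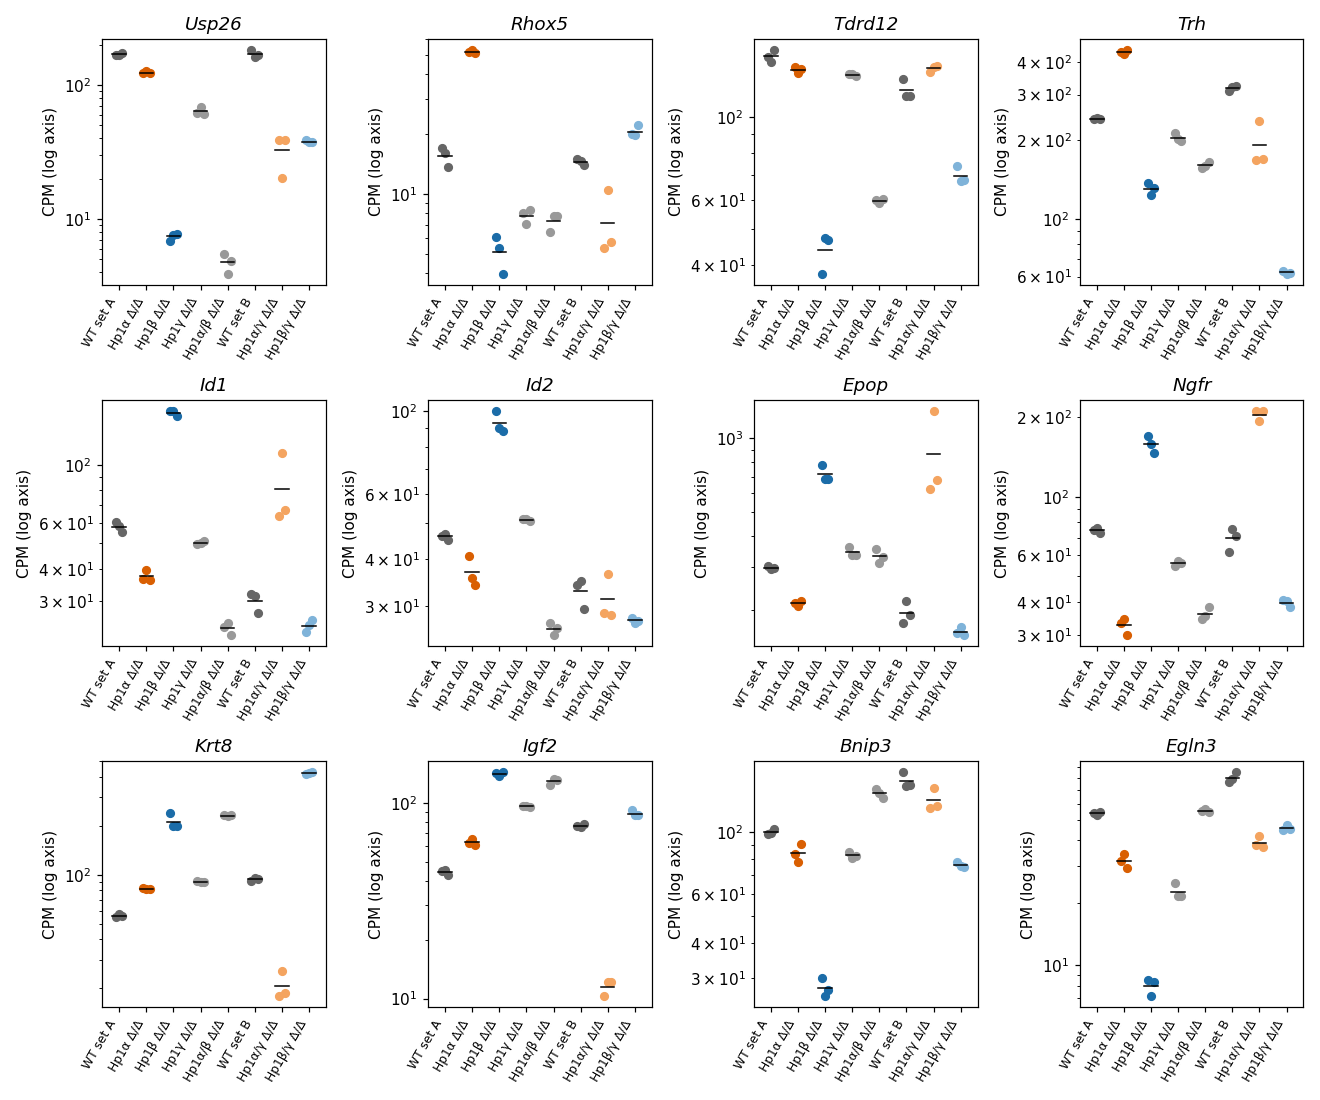
CPM of 12 named genes in each of 24 libraries, scaled together, on log axes; points are libraries and black lines group means. Usp26, Tdrd12, Bnip3 and Egln3 were lower and Id1, Id2, Epop, Ngfr, Krt8 and Igf2 higher in Hp1β Δ/Δ than in Hp1α Δ/Δ ESCs, while wild-type ESCs lay nearer one or the other depending on the gene.

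Genes of pluripotency moved in both directions. Among 25 core and naive pluripotency genes, none was called higher and 3 were called lower in Hp1β Δ/Δ ESCs, although 12 were higher and 7 lower at the adjusted p alone, with a median of 0.19. Pou5f1, which encodes OCT4, was at 1080, 990 and 979 CPM in Hp1β Δ/Δ and 854, 841 and 860 CPM in Hp1α Δ/Δ ESCs (log2 fold change 0.26, adjusted p = 0.000442). Sox2 had a log2 fold change of -0.24, Klf2 of 0.65 and Dppa5a of -0.87, all past the adjusted p but short of the fold threshold. Lin28a did not pass, at 474, 438 and 441 CPM against 464, 450 and 457 CPM (log2 fold change -0.02, adjusted p = 0.745).

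The 3 called members were Fbxo15, an early OCT4 target, Klf4, a naive-state factor, and Dppa3, a germline and oocyte factor. Fbxo15 was at 58.7, 59.6 and 63.1 CPM in Hp1β Δ/Δ and 145, 139 and 136 CPM in Hp1α Δ/Δ ESCs (log2 fold change -1.21, adjusted p = 1.01e-08). Klf4 had a log2 fold change of -1.14 (adjusted p = 2.16e-07) and Dppa3 of -1.09 (adjusted p = 4.65e-07). For Klf4, wild-type set A, at a median of 16.8 CPM, lay with the Hp1β Δ/Δ libraries, at 17.8, 19.9 and 19.6 CPM, and apart from the Hp1α Δ/Δ libraries, at 40.1, 43.6 and 42.7 CPM.

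Formative and primed genes, which mark the step after naive pluripotency, were lower in Hp1β Δ/Δ ESCs more often than higher: 4 of 18 tested were called lower and 1 higher, and 11 and 3 at the adjusted p alone, with a median of -0.31. Trh, thyrotropin-releasing hormone, was at 136, 122 and 131 CPM against 440, 428 and 446 CPM in Hp1α Δ/Δ ESCs (log2 fold change -1.75, SE 0.047, adjusted p = 2.78e-10). The transcription factor gene Otx2 was at 15.6, 14.3 and 13.4 CPM against 31.7, 32.5 and 36.0 CPM (log2 fold change -1.21). Fgf5 (-2.39) and the Wnt effector gene Lef1 (-1.35) were lower as well, and Fgf15 was higher by 1.03 on the log2 scale, a call lost at 0.93 to 0.98 without Hp1α Δ/Δ replicate 3 or Hp1β Δ/Δ replicate 1. In the Hp1β Δ/Δ libraries Fgf5 was at 0.402, 0.702 and 0.374 CPM, so it entered the test through the Hp1α Δ/Δ libraries. It could therefore only be called lower, and its call says nothing on the direction of the list. Wild-type set A had a median of 242 CPM for Trh, between the groups, and of 5.48 CPM for Otx2, below both.

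Of 16 tested bone morphogenetic protein (BMP) pathway genes, 3 were called higher in Hp1β Δ/Δ ESCs and none lower, with a median of 0.48. At the adjusted p alone 6 were higher, none lower and 10 did not pass. Over all tested genes 2.60% were called higher and 3.49% lower, and 19.3% were higher at the adjusted p alone. The absence of a called fall among 16 genes therefore says little. The ligand gene Bmp4 was at 14.8, 19.5 and 16.8 CPM against 5.34, 5.72 and 5.94 CPM in Hp1α Δ/Δ ESCs (log2 fold change 1.59, adjusted p = 1.35e-06). Among the targets, Id1, an inhibitor of differentiation factors, was at 160, 161 and 155 CPM against 36.7, 39.7 and 36.3 CPM (log2 fold change 2.08, SE 0.053, adjusted p = 2.11e-10). Id2 was at 99.7, 90.0 and 88.5 CPM against 41.0, 35.7 and 34.3 CPM (log2 fold change 1.32, adjusted p = 7.15e-08). The Hp1β Δ/Δ libraries were the highest of all 24 for both Id genes, and wild-type set A had medians of 58.3 and 46.2 CPM.

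The promoter of Id2 is shown because it rose with the other BMP target and carries a GGCGCC, the GC-rich element that BMP-activated SMAD proteins bind. It covers the 250 bases upstream of the RefSeq start (chr12:25096093-25096342, minus strand, GRCm38.p6), with the motif, searched on both strands, in capitals.
Id2: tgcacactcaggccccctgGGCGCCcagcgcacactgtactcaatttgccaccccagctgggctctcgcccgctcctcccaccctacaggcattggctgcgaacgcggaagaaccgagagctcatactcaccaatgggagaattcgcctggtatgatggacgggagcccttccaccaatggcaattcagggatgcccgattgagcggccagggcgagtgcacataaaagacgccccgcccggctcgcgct
The motif was found in 9.59% of the 32851 promoter windows of the same length, and the window of Bmp4 held none. Id1 had no entry in the promoter table.

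Single members of other signalling lists also rose. Nodal, a TGFβ ligand, was at 115, 102 and 102 CPM in Hp1β Δ/Δ and 40.1, 35.3 and 41.1 CPM in Hp1α Δ/Δ ESCs (log2 fold change 1.45, adjusted p = 2.58e-08), and was the 1 member called of 16 tested Nodal and Lefty genes, whose median was 0.05. Of 20 FGF and ERK genes 2 were called higher and 2 lower, with a median of 0.01: Fgf17 had a log2 fold change of 1.15, and Fgf5 of -2.39. Fgf5, tested through the Hp1α Δ/Δ libraries, could only be called lower. Of 15 immediate early genes 2 were called higher and none lower, with a median of 0.58. Myc was at 104, 100 and 97.6 CPM against 39.2, 37.6 and 39.8 CPM (log2 fold change 1.37, adjusted p = 5.68e-09), and Fosl1 had a log2 fold change of 2.18. In the Hp1α Δ/Δ libraries Fosl1 was at 0.449, 0.387 and 0.789 CPM, so it entered the test through the Hp1β Δ/Δ libraries. It could therefore only be called higher, and its call says nothing on the direction of the list.

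Trophectoderm genes, which mark the outer layer of the blastocyst, were mostly higher in Hp1β Δ/Δ ESCs. Of 13 tested, 6 were called higher and none lower (10 and 1 at the adjusted p alone), with a median of 0.91. Over all tested genes 2.60% were called higher and 3.49% lower. The keratin genes Krt8 and Krt18 were the most abundant of those called. Krt8 was at 239, 198 and 198 CPM against 82.8, 81.7 and 82.1 CPM in Hp1α Δ/Δ ESCs (log2 fold change 1.36, adjusted p = 3.13e-08), and Krt18 had a log2 fold change of 1.35. Cdx2, the defining factor of the lineage, was at 1.96, 1.32 and 1.07 CPM against 0.269, 0.043 and 0.139 CPM (log2 fold change 3.23, adjusted p = 0.000512), so its level was low in both lines. Cdx2 reached the level needed for testing in the Hp1β Δ/Δ libraries alone and could only be called higher. The same held for Cyp11a1, which the paper counts among trophectoderm genes (log2 fold change 2.15). It was at 1.46, 0.966 and 1.21 CPM against 0.449, 0.215 and 0.139 CPM. The calls of Cdx2 and Cyp11a1 therefore say nothing on the direction of the list. Elf5 was under 1 CPM in all 6 libraries, and the list median was 0.57 over the 8 genes with 10 or more counts in each library. In these bulk libraries a larger share of differentiating cells and a higher level in every cell cannot be told apart.

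Of 13 tested endoderm genes 2 were called higher and none lower, with a median of 0.55: Sox7 (log2 fold change 2.08) and the basement membrane collagen gene Col4a2 (1.10). Gata6 and Sox17 were under 1 CPM in all 6 libraries. Of 11 ectoderm and mesoderm genes 3 were called higher and 1 lower. Hand1, a factor of extraembryonic mesoderm and trophoblast, was at 19.4, 15.2 and 14.9 CPM against 3.81, 3.05 and 3.57 CPM (log2 fold change 2.24, adjusted p = 2.8e-07), T (Brachyury) had a log2 fold change of 1.46 (adjusted p up to 0.0719 without Hp1α Δ/Δ replicate 2 or 3), and Kdr, the VEGF receptor gene, of -1.47. T was at 1.11, 1.23 and 1.26 CPM against 0.673, 0.258 and 0.371 CPM. It entered the test through the Hp1β Δ/Δ libraries and could only be called higher.

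The hypoxia and glycolysis genes were lower in Hp1β Δ/Δ ESCs. Of 28 tested, 6 were called lower and none higher, 19 were lower and 2 higher at the adjusted p alone, and the median was -0.43. Bnip3, a mitophagy receptor gene, was at 29.8, 25.8 and 27.2 CPM against 83.7, 78.0 and 90.8 CPM in Hp1α Δ/Δ ESCs (log2 fold change -1.61, adjusted p = 1.47e-08). Egln3, a prolyl hydroxylase of the hypoxia-inducible factor (HIF), was at 8.45, 7.11 and 8.36 CPM against 31.7, 34.5 and 29.5 CPM (log2 fold change -2, adjusted p = 2.72e-08). The Hp1β Δ/Δ libraries were the lowest of all 24 for both genes, and wild-type set A had medians of 99.1 and 54.2 CPM. Ndufa4l2 (-2.22, adjusted p = 8.52e-05) and Adm, adrenomedullin (-1.53, adjusted p = 0.00547), were lower at levels under 6 CPM.

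The promoters of 3 of these 4 genes are shown, as members that fell together, with the core of the HIF response element in capitals, ACGTG or GCGTG on either strand. Each covers the 250 bases upstream of the RefSeq start on GRCm38.p6: Bnip3 at chr7:138909507-138909756 (minus strand), Egln3 at chr12:54203875-54204124 (minus strand) and Adm at chr7:110627407-110627656 (plus strand).
Bnip3: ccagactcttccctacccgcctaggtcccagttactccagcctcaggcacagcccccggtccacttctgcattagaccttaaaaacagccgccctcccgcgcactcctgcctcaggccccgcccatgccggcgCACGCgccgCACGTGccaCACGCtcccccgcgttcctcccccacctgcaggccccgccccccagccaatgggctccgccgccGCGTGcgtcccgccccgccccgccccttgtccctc
Egln3: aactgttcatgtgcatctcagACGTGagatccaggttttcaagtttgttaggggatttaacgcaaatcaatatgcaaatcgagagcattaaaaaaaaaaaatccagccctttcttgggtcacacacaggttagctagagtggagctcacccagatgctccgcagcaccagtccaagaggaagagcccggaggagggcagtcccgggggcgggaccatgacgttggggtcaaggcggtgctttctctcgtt
Adm: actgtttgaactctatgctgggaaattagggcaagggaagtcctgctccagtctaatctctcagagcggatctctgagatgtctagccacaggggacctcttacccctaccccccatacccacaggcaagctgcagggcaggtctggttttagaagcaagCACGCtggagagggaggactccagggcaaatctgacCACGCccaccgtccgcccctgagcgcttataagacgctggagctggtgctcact
Bnip3 held 5 matches (the palindromic CACGTG counts on both strands), Adm 2 and Egln3 1, and 38.6% of the 32851 windows held at least 1. Ndufa4l2 had no entry in the promoter table.

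Genes of glutathione and oxidative stress were also lower: of 26 tested 4 were called lower and 1 higher, 16 and 4 at the adjusted p alone, with a median of -0.45. The transferase genes Gstp2 (log2 fold change -1.37) and Gstt1 (-1.16) and the cystine transporter gene Slc7a11 (-1.24) fell. Gpx1, a glutathione peroxidase, was the exception, at 334, 306 and 293 CPM in Hp1β Δ/Δ and 112, 109 and 111 CPM in Hp1α Δ/Δ ESCs (log2 fold change 1.49, adjusted p = 2.3e-09). Wild-type set A had a median of 140 CPM for Gpx1, nearer to Hp1α Δ/Δ ESCs.

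Of 19 tested p53 targets, 16 were higher and 1 lower at the adjusted p alone, with a median of 0.49, while 2 passed the fold threshold. Perp, a desmosomal effector of p53, was at 65.3, 59.7 and 61.0 CPM against 23.7, 22.9 and 26.1 CPM (log2 fold change 1.36), and the kinase gene Plk2 had a log2 fold change of 1.46. Of 23 tested interferon-stimulated and sensing genes, 6 were called lower in Hp1β Δ/Δ ESCs and none higher, with a median of -0.10. Bst2, which encodes tetherin, was at 24, 22.4 and 24.4 CPM against 62.2, 57.6 and 63.8 CPM (log2 fold change -1.37), and Oasl2 (-1.85), Ifit2 (-1.36) and Zbp1 (-1.31) were lower at under 10 CPM; Ifit2 had an adjusted p of up to 0.0598 without replicate 2 of either line.

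**Figure D4:**
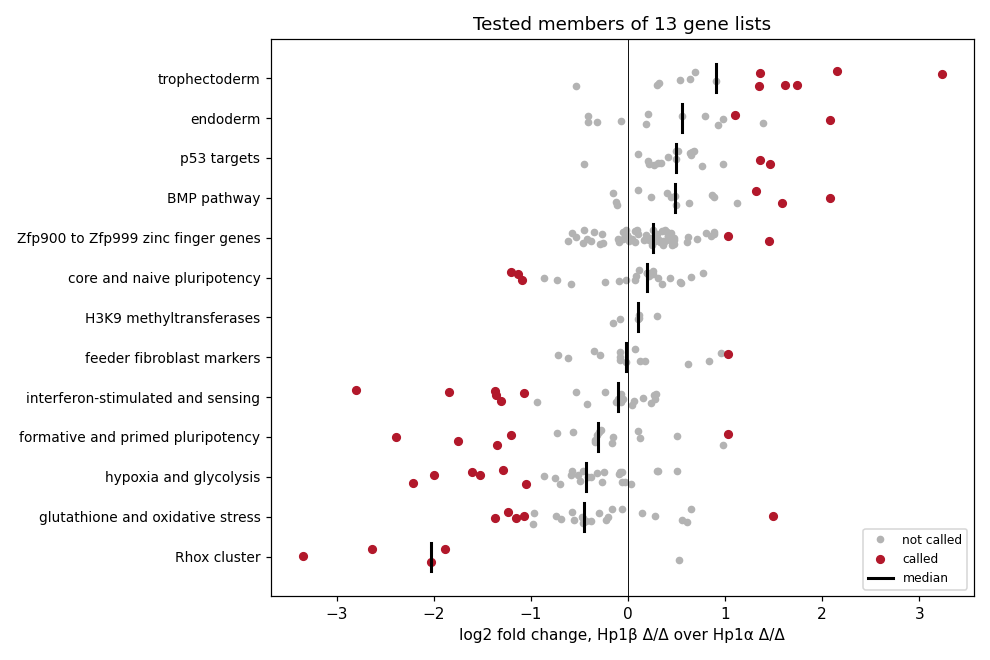
Log2 fold change of Hp1β Δ/Δ over Hp1α Δ/Δ ESCs for the tested members of 13 gene lists; each point is a gene, red points are called and black bars are list medians. Trophectoderm genes lay to the right (median 0.91) and Rhox, glutathione and hypoxia genes to the left (medians -2.03, -0.45 and -0.43), while H3K9 methyltransferase genes had no call.

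Epop, which modulates Polycomb repressive complex 2 (PRC2), was at 772, 682 and 681 CPM in Hp1β Δ/Δ and 215, 209 and 220 CPM in Hp1α Δ/Δ ESCs (log2 fold change 1.73, SE 0.053, adjusted p = 8.44e-10). Wild-type set A had a median of 296 CPM. It was the 1 called gene of 12 tested PRC2 genes, whose median was -0.07. No gene was called among the 10 tested H3K9 demethylases, 10 SETDB1 cofactor, HUSH and ATRX-DAXX genes, 21 HP1-binding proteins, 14 DNA methylation and TET genes or 13 PRC1.6 subunits, 66 genes in all, by edgeR or by DESeq2, where 6.09% of all tested genes were called by edgeR. The fold threshold set this result: 37 of the 66 passed the adjusted p alone in edgeR, against 39.6% of all tested genes. An unadjusted p under 0.05 was found for 43 of them. Their largest absolute log2 fold change was 0.797.

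Zinc finger genes numbered Zfp900 to Zfp999, many of them of the KRAB family that recruits TRIM28, were shifted upward by a small amount. Of 62 tested, 24 (38.7%) were higher and 4 lower in Hp1β Δ/Δ ESCs at the adjusted p alone, against 19.3% and 20.3% of all tested genes, and the median was 0.26. Over all 385 tested genes named Zfp, 93 were higher and 43 lower at the adjusted p alone, with a median of 0.08. Of these 62, Zfp951 (log2 fold change 1.45) and Zfp986 (1.03) were called, and Zfp986 was at 0.95 to 0.99, and not called, without Hp1α Δ/Δ replicate 3 or Hp1β Δ/Δ replicate 2 or 3. The near-identical copies in these clusters share reads, so values of single members are uncertain, and the summed level of the list spread from 1580 to 2230 CPM over the Hp1β Δ/Δ libraries and from 1530 to 1650 CPM over the Hp1α Δ/Δ libraries, which overlapped.

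Imprinted genes were called in both directions, 2 higher and 3 lower of 44 tested, with a median of 0.08. Igf2, a fetal growth factor, was at 141, 137 and 142 CPM in Hp1β Δ/Δ against 62.7, 65.2 and 60.9 CPM in Hp1α Δ/Δ ESCs (log2 fold change 1.15, adjusted p = 1.01e-08). The neighbouring noncoding gene H19 was at 8.65, 8.34 and 6.35 CPM against 2.06, 1.76 and 1.67 CPM (log2 fold change 2.08, adjusted p = 4.92e-06). Both were lower still in wild-type set A, at medians of 45.0 and 0.330 CPM. Wild-type set B had medians of 75.9 and 0.667 CPM, above Hp1α Δ/Δ ESCs for Igf2 and below them for H19. Sgce (-1.82) and Mirg (-1.10) were lower in Hp1β Δ/Δ ESCs.

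Neighbouring genes were called together in 28 runs, where a run needed at least 3 of 5 consecutive tested genes called in the same direction. The highest number called was 4, reached by 5 runs that are all given since they tie. On chromosome 7, H19, Igf2, Gm49394 and Igf2os were higher in Hp1β Δ/Δ ESCs (chr7:142575529-142670356), with Gm33148 between them not called; Gm49394 and the antisense gene Igf2os overlap Igf2, and their reads may not be separable. On the X chromosome, the Rhox genes above (chrX:37213804-37901770) and the run of Usp26, Gpc3, Kis2 and Ccdc160 (chrX:51753959-52799468) were lower. Rhox1 and Kis2 (means of 0.265 CPM in Hp1β Δ/Δ and 2.03 CPM in Hp1α Δ/Δ ESCs for Kis2) entered the test through the Hp1α Δ/Δ libraries alone. They could therefore only be called lower. Gm49394, in the chromosome 7 run, was at 0.808, 0.43 and 0.139 CPM in the Hp1α Δ/Δ libraries. It entered the test through the Hp1β Δ/Δ libraries and could only be called higher. Within the Usp26 run Gpc3, a glypican gene, was at 28.8, 24.8 and 22.8 CPM against 57.8, 59.2 and 59.7 CPM (log2 fold change -1.21), whereas its neighbour Gpc4 lay the other way at 0.63 and was not called.

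The other runs were Fthl17b, Fthl17c, Fthl17f and Lancl3 on the X chromosome, higher in Hp1β Δ/Δ ESCs, and Csrnp3, Galnt3, B3galt1 and Stk39 on chromosome 2 (chr2:65845767-68472268), lower. The ferritin-like Fthl17 genes are near-identical copies, were under 3 CPM in all 6 libraries and are uncertain one by one. Fthl17b, Fthl17c and Lancl3 did not reach the level needed for testing in every Hp1α Δ/Δ library. They entered the test through the Hp1β Δ/Δ libraries, so their calls say little on the direction of the run. The calls of Fthl17b, Fthl17c and Lancl3 were each lost when 1 of 2 or more libraries was left out (adjusted p up to 0.208), and Csrnp3 was at -0.99 without Hp1β Δ/Δ replicate 1. Stk39, a stress kinase gene, was at 2.56, 3.60 and 2.85 CPM against 9.34, 9.37 and 7.28 CPM (log2 fold change -1.52). In the chromosome 2 run Ttc21b (-0.41) and Scn1a (-0.01) were not called.

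Chromosome 16 differed as a whole. Its 447 tested genes had a median log2 fold change of 0.19, where the other autosomes and the X chromosome lay between -0.06 and 0.04. On it, 196 genes (43.8%) were higher and 37 lower at the adjusted p alone, but 14 and 4 were called, since the shift was below the fold threshold. All 16 windows of 50 neighbouring genes on it had a median above 0.1, ranging from 0.11 to 0.31, against 47 of 581 windows elsewhere. Neighbouring windows overlap and share genes, so these are not separate counts. Chromosome 16 genes took 2.91, 2.90 and 2.92% of the counts in the Hp1β Δ/Δ libraries, 2.50, 2.49 and 2.50% in the Hp1α Δ/Δ libraries and 3.46, 3.46 and 3.47% in wild-type set A.

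Libraries of the same group lay within 0.03 of each other on this chromosome, closer than many of the groups. As the median deviation from the mean of the 24 libraries on the log2 scale, wild-type set A lay at 0.32 to 0.33, wild-type set B at 0.24 to 0.27, Hp1β Δ/Δ at 0.06 to 0.07 and Hp1α Δ/Δ at -0.16 to -0.15. The Hp1γ Δ/Δ libraries and those of the 3 double mutants lay between -0.17 and -0.06. The number of copies of the chromosome in each line was not tested, and line and genotype cannot be told apart.

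**Figure D5:**
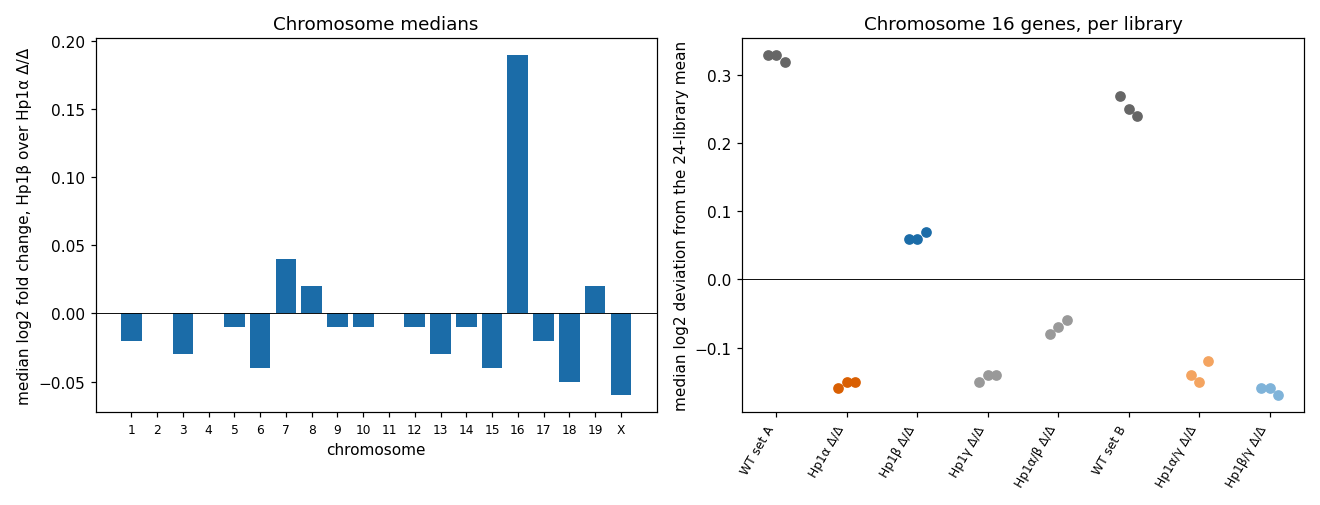
Left, median log2 fold change of Hp1β Δ/Δ over Hp1α Δ/Δ ESCs for the tested genes of each autosome and the X chromosome. Right, median log2 deviation of chromosome 16 genes from their mean over 24 libraries, 1 point per library. On the left chromosome 16 lies at 0.19, apart from the other autosomes and X. M (0.19 over 15 genes) and Y (-0.23 over 14) are not drawn. On the right Hp1β Δ/Δ libraries (0.06 to 0.07) lie between wild-type and Hp1α Δ/Δ libraries (-0.16 to -0.15).

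Markers of other cells that the cultures could hold were examined beside these results. The 6 ESC markers summed to 2310 to 2430 CPM in Hp1β Δ/Δ and 2340 to 2380 CPM in Hp1α Δ/Δ libraries, and none was called. The 10 feeder fibroblast markers summed to 35.8 to 38.8 and 33.6 to 37.3 CPM, none of the 8 tested was called, and Postn, Twist2, Col3a1 and Lum were under 1 CPM in every library. The sum held opposite moves short of the fold threshold. Col1a1 was at 18.0, 16.1 and 17.6 against 10.5, 9.16 and 9.46 CPM (log2 fold change 0.83, adjusted p = 3.91e-05). Fbn1 was lower (-0.62, adjusted p = 0.00365), and Thy1 did not pass (-0.08, adjusted p = 0.608). In the longer list of 20 feeder genes, 1 of 15 tested, the collagen gene Col6a1 (log2 fold change 1.03), was called, and was at 0.80 and 0.88 without replicate 1 of either line. Primitive endoderm markers summed to 9.01 to 9.80 against 6.28 to 8.62 CPM, and trophectoderm markers to 12.6 to 15.7 against 8.49 to 8.98 CPM. None of the 32 annotated 2-cell-like genes reached the level needed for testing, and their sum was 0.603 to 0.934 CPM in Hp1β Δ/Δ and 0.696 to 0.817 CPM in Hp1α Δ/Δ libraries.

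The called genes were set beside 3 groups that did not enter the test, as a description. Of the 549 genes lower in Hp1β Δ/Δ ESCs, the wild-type set A mean was nearer to Hp1α Δ/Δ for 427 and nearer to Hp1β Δ/Δ for 122 (22.2%, against 38.1% of all tested genes). Of the 409 genes higher, it was nearer to Hp1α Δ/Δ for 275 and to Hp1β Δ/Δ for 134 (32.8%). In Hp1α/β Δ/Δ ESCs, which lack both proteins, the level was nearer to Hp1β Δ/Δ for 218 of the 549 (39.7%) and 157 of the 409 (38.4%), against 37.7% of all tested genes. In Hp1γ Δ/Δ ESCs it lay between the groups for 462 of the 549 and 303 of the 409, against 7605 of all 15728 tested genes, and the rule for a call keeps genes whose groups lie apart.

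The same paralogs were compared on a background without HP1γ, in Hp1β/γ Δ/Δ against Hp1α/γ Δ/Δ ESCs. There 3871 of 16210 tested genes (23.9%) were called, 2830 (17.5%) higher and 1041 (6.42%) lower in Hp1β/γ Δ/Δ ESCs, and 45.8% passed the adjusted p alone. Hp1α/γ Δ/Δ replicate 2 stood apart from its replicates, and without it 4209 genes were called. Markers of other cells moved with this contrast: 10 of 13 tested feeder fibroblast genes were called higher in Hp1β/γ Δ/Δ ESCs (median log2 fold change 2.62), as were 26 of 27 2-cell-like genes (median 5.92), while 16 of 25 core and naive pluripotency genes were called lower (median -1.21). Genes that reach the level needed for testing in a single group can only be called higher in that group. Whether the 2-cell-like genes did so was not examined, so their count is not read as a direction. The part of these markers in the values below was not tested. Of the 409 genes higher in Hp1β Δ/Δ ESCs, 343 were tested in the double mutants and 199 (58.0%, against 51.3% of all genes tested there) were higher again, with a median log2 fold change of 0.37. Of the 549 genes lower, 522 were tested and 160 (30.7%, against 48.7%) were lower again, and their median was 0.76. Without Hp1α/γ Δ/Δ replicate 2 these shares were 60.1% and 30.9%.

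Among the named genes, some kept the direction and others did not. Cbx1 (-2.41) and Cbx5 (1.64) kept theirs in the double mutants, as the genotypes require. H19 (2.21), Hand1 (3.72), Krt8 (4.39), Igf2 (2.96), Bnip3 (-0.74), Tdrd12 (-0.94), Klf4 (-1.24) and Trh (-1.59) also did, with adjusted p of 3.4e-05, 1.33e-05, 1.33e-05, 1.33e-05, 0.000761, 0.000248, 0.000253 and 0.000186. Epop (-2.36), Ngfr (-2.34), Id1 (-1.70), Bmp4 (-2.30) and Gpx1 (-0.92) were lower in Hp1β/γ Δ/Δ ESCs although higher in Hp1β Δ/Δ ESCs, and Rhox5 (1.56), Gfra1 (4.88), Otx2 (1.06) and Oasl2 (4.39) were higher although lower in the single mutant. Usp26 did not pass in the double mutants, at medians of 37.6 CPM in Hp1β/γ Δ/Δ and 38.6 CPM in Hp1α/γ Δ/Δ ESCs (log2 fold change 0.23, adjusted p = 0.488). The difference between the contrasts passed an adjusted p of 0.05 for 8167 of 17089 genes (47.8%).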

How the data were processed

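RNA-seq libraries of mouse ESCs were compared from the gene tables the authors deposited, which hold expected counts and TPM per gene. The authors' processing notes name TopHat2 2.1.1, RSEM, edgeR and GRCm38.p5. The roles and order of these tools, and whether counting used strand, are not given in the sources used here, and the paper and the labels name different TruSeq kits. In the libraries used, between 11.2% and 15.1% of the deposited expected counts were not whole (11.4% to 11.9% in the 6 main libraries) and were rounded. The wild-type set A columns were identical in the 2 tables that hold them (3 of 3). The deposited TPM were used for the HP1 genes alone, without a test. The authors' own fold change columns were not used.

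Genes were filtered with filterByExpr (minimum count 10), scaled by TMM and tested with the edgeR 4.0.16 quasi-likelihood test (R 4.3.3), with Benjamini-Hochberg adjustment over all tested genes. Called genes had a log2 fold change beyond 1 in either direction and an adjusted p below 0.05, the study's thresholds. Fold changes are Hp1β Δ/Δ over Hp1α Δ/Δ. Levels in other groups are CPM on a common scaling of 24 libraries. DESeq2 1.42.0, other scalings, filters, a replicate block, a joint fit and leaving out each library were alternatives. Scripts were tested on simulated data.

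Of 55487 genes, 55227 matched GENCODE M21, and the sequences are from RefSeq promoter windows (GRCm38.p6) and the study's guide list. Named genes were the HP1 and H3K9 methyltransferase genes, the 10 largest rises and 10 largest falls (called, no overlap, at least 5 CPM in the higher group, named symbols), the 4 largest predicted genes (2 each way), up to 4 called members of each list at 1 CPM or more, the 5 most abundant pluripotency and feeder genes, and the runs with most called neighbours. Results of 2 genes that this rule names are not reported here. The members and gene lists were chosen with earlier results of these data known. Intervals and p-values rest on 3 libraries a group.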

Additional observations from a re-analysis of the deposited data

Results flagged for a closer look

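The difference between the contrasts, Hp1β Δ/Δ against Hp1α Δ/Δ minus Hp1β/γ Δ/Δ against Hp1α/γ Δ/Δ, was tested by an interaction term over 12 libraries (edgeR quasi-likelihood test). It passed an adjusted p of 0.05 for 89 of the 119 named genes and for 47.8% of all 17089 genes. Most named genes were chosen by their calls in the first contrast, which is part of this difference. Their share is therefore raised by the choice and cannot be set against that of all genes. Values are differences of log2 fold changes, and no explanation was weighed. Hp1α/γ Δ/Δ replicate 2 stood apart from its replicates, and without it 10221 genes passed.

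For genes past the adjusted p in both contrasts with opposite signs, lower in Hp1β Δ/Δ and higher in Hp1β/γ Δ/Δ ESCs, the difference was found at Gfra1 (-7.63), Fgf5 (-7.29), Oasl2 (-6.17), Kis2 (-5.35), Rhox5 (-4.83), Sgce (-4.0), B3galt1 (-3.65), Ntrk2 (-3.55), Gm49229 (-3.55), Ccdc160 (-3.18), Galnt3 (-3.12) and Fbn1 (-2.31). The same held at smaller differences for Egln3 (-2.19), Otx2 (-2.19) and Ttc21b (-1.77).

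Opposite signs of the other kind, higher in Hp1β Δ/Δ and lower in Hp1β/γ Δ/Δ ESCs and past the adjusted p in both contrasts, were found at Pla2g7 (7.04), Ngfr (4.69), Epop (4.17), Sox7 (4.04), Bmp4 (3.96), Id1 (3.86), Gpx1 (2.50), Fgf17 (2.04), Zfp986 (1.98), Klf2 (1.92), Pou5f1 (1.22) and Ehmt2 (1.04).

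For the remaining genes, which had the same sign in both contrasts or did not pass, or were not tested, in one of them, the difference was below 0 at Acta1 (-4.72), Wnt3 (-4.29), Usp26 (-4.22), Pcdhac2 (-3.55), Zeb2 (-3.37), Krt8 (-2.95), Syce3 (-2.76), Pclo (-2.66), Krt18 (-2.65), Col6a2 (-2.63), Adm (-2.39) and Col6a1 (-2.35). Further values below 0 were found at Zfy1 (-2.27), T (-2.23), Pnma5 (-1.89), Ifit2 (-1.89), Bst2 (-1.86), Unc5a (-1.83), Mmp2 (-1.76), Zbp1 (-1.73), Igf2 (-1.73), Kdr (-1.62), Gstt1 (-1.61) and Mirg (-1.57). Smaller values below 0 belonged to Hand1 (-1.40), Slc7a11 (-1.31), Stk39 (-1.30), Suv39h1 (-1.23), Cryab (-1.22), Csrnp3 (-1.19), Ccn1 (-1.10), Thy1 (-0.97), Col1a1 (-0.81), Bnip3 (-0.80), Plk2 (-0.71) and Dppa3 (-0.68). The smallest were those of Tdrd12 (-0.61), Col4a2 (-0.60), Gpc3 (-0.51), Lin28a (-0.49) and Fbxo15 (-0.27).

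It was above 0 at Rhox1 (3.67), Stra8 (2.69), Dmkn (2.33), Fosl1 (2.11), Hoxd13 (2.1), Dppa5a (1.84), Zfp951 (1.72), Myc (1.69), Id2 (1.56), Igf2os (1.54), Cyp26a1 (1.43) and Fthl17f (1.38). Further values above 0 were found at Arntl2 (1.29), Fgf15 (1.14), Lef1 (0.85), Nodal (0.83), Setdb2 (0.50), Epha2 (0.44), Cbx3 (0.42), Sox2 (0.41) and Cbx1 (0.33).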

How the results depend on the processing

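The number of genes called between Hp1β Δ/Δ and Hp1α Δ/Δ ESCs stayed within 1.5 times of 958 under RLE scaling (950), DESeq2 (874, sharing 818 genes), a filter at 1 count (1177), a minimum of 10 counts in each library (655) and the joint fit (1053), and ranged from 868 to 1050 when 1 library was left out. Without the fold threshold it was 6233. For Hp1β/γ Δ/Δ against Hp1α/γ Δ/Δ ESCs, 2522 genes were called with at least 10 counts in every library, which tests fewer genes, and 7418 without the fold threshold, and the count ranged from 3497 to 4209 when 1 library was left out. The interaction count ranged from 7219 to 10221. Same-numbered libraries did not deviate together in the main contrast (correlations 0.00687, 0.00896 and -0.0241), so the numbers do not pair them, and with a replicate block 926 genes were called, 893 of them shared. In the double contrast the block gave 3717 calls and for the interaction 7715.

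Of 97 named genes that were called, 81 kept the call in all 12 alternatives that tested them and none reversed. Of the 16 others, Lancl3 lost it with DESeq2 (adjusted p = 0.0719) and the block (adjusted p = 0.0682) and mt-Nd3 with DESeq2 (adjusted p = 0.214), and the other losses came from leaving out 1 library. RLE scaling shifted the median of all genes by 0.005 on the log2 scale. With at least 10 counts in every library, 7 list medians moved by more than the spread between library pairs. Depth limits the genes of low level: 2-cell-like genes could not be tested, and many called genes had a mean under 1 CPM in at least 1 group. Among them were Cdx2, Rhox1, Fosl1, Fgf5, Cyp11a1, T, Syce3, Gm49394, Kis2, Adm, Pcdhac2 and Robo3. Where the lower group missed the level needed for testing in any library, the gene entered through the higher group. The direction of such a call carries little weight.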

Other observations

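Structural and guidance lists held between 2 and 4 called genes each, where 6.09% of all tested genes were called. Of 18 tested contractile and SRF genes 2 were called higher and none lower in Hp1β Δ/Δ ESCs, with a median log2 fold change of 0.12: the actin gene Acta1 (1.54, adjusted p = 0.000398) and the matricellular gene Ccn1 (1.02, adjusted p = 1.15e-07), which was at 0.98, and not called, without replicate 1 of either line. Of 61 axon guidance genes 3 were called higher and 1 lower, with a median of 0.22; the call of Robo3, one of those higher, was lost in 3 of the settings that left out 1 library, at adjusted p of up to 0.0899, and that of Unc5a, the one lower, in 4, at up to 0.0627. Epha2, an ephrin receptor gene, was at 485, 468 and 463 CPM in Hp1β Δ/Δ and 226, 234 and 230 CPM in Hp1α Δ/Δ ESCs (log2 fold change 1.04), and Efna3 had a log2 fold change of 1.08. Of 35 collagens 2 were called higher and 1 lower (median 0.13), and of 21 adhesion and mesenchyme genes 1 and 1 (median -0.08), Snai1 (1.27) and Zeb2 (-1.52), both repressors of epithelial genes.

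Of 39 Hox genes 4 were tested and 2 called higher, among them Hoxd13 (log2 fold change 1.76) at 1.26 to 2.15 CPM. Of 12 neural genes 1 was called higher and 1 lower (median 0.19), the latter being Ntrk2 (-1.34), and of 13 canonical Wnt targets 1 and 1 (median 0.04). Of 25 tested clustered protocadherins 1 was called, Pcdhac2 (-2.38, adjusted p = 0.0134), with a median of -0.15, and this call was lost in 2 of the settings that left out 1 library, at adjusted p of 0.0523 and 0.0571. Pcdhac2 was at 0.503, 0.132 and 0.0 CPM in the Hp1β Δ/Δ libraries, entered the test through the Hp1α Δ/Δ libraries and could only be called lower. None of 5 tested vomeronasal receptors was called by edgeR or DESeq2, and none had an unadjusted p under 0.05. Of 15 mitochondrially encoded genes 1 was called, mt-Nd3 (-1.26, adjusted p = 0.0482), and of 9 non-polyadenylated RNA genes 1, Hist1h2bq (-1.45, adjusted p = 0.0334); both calls were lost in 4 of the settings that left out 1 library, at adjusted p of up to 0.285 and 0.182. Of 48 windows of 50 genes that held 5 or more zinc finger genes, 35 had a median above 0, against 266 of all 597 windows, and neighbouring windows overlap.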
